A study of Rattus norvegicus with 12 samples.

Results

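The expression of 10 genes of fatty acid synthesis, elongation and desaturation was followed in rat hearts transduced with VEGF-B: Acly, Acaca, Acacb, Elovl1, Elovl5, Elovl6, Scd2, Fads1, Fads2 and Srebf1. They were chosen by name as enzymes of these pathways and their transcriptional regulator, with earlier results of these data known. Each was measured through the probe whose array annotation gives its symbol, taking the brightest where a gene had several. Of the 10 genes, 8 had a named probe among the 22517 probes and 13336 named genes of the array, and each had 1. Elovl1 and Acacb were not analysed here. The probes of 5 genes (Elovl5, Scd2, Acly, Fads1 and Srebf1) were above background on all 12 arrays and were tested, whereas those of Elovl6, Acaca and Fads2 were above background on 0 of 12 arrays.

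Left ventricular RNA of 12 Wistar rats was hybridised to 1 single-colour Illumina RatRef-12 bead array per heart. In 6 rats an adeno-associated virus (AAV) of serotype 9 coding for human VEGF-B, a growth factor of the vascular endothelial family, had been injected through the tail vein, and in the other 6 a matching vector coding for HSA, human serum albumin, which served as a secreted control. The AAV-VEGF-B group held 3 females after 2 months of expression and 3 males after 4 months, and so did the AAV-HSA group. The males had been injected a further time, so that effects of sex, of duration and of the additional injection cannot be told apart. The isoform of VEGF-B given to these rats was not given in the sources used here, and since both transgenes are human, no rat probe was used to check the vector labels.

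Fatty acids are built in the cytosol from acetyl-CoA, which ATP citrate lyase (Acly) releases from citrate and the acetyl-CoA carboxylases (Acaca and, at the outer mitochondrial membrane, Acacb) convert to malonyl-CoA. Elongases of the endoplasmic reticulum (the Elovl family) then use malonyl-CoA to lengthen fatty acids, and desaturases (Scd2, Fads1 and Fads2) introduce double bonds, so that dietary essential fatty acids become the long polyunsaturated fatty acids of membranes. The heart synthesises little fat and burns much of what it takes up. In it malonyl-CoA is known above all as the inhibitor of carnitine palmitoyltransferase at the entry of fatty acids into mitochondria. In liver, sterol regulatory element-binding protein (Srebf1) drives many of these genes together.

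Values are given as log2 signals after background correction and quantile normalization, and a change is the AAV-VEGF-B mean minus the AAV-HSA mean on that scale. A gene was called higher or lower where the p-value of limma, adjusted by Benjamini-Hochberg over all 10281 probes tested, was under 0.05. Array medians ran from 151.8 to 179.6 signal units and 39.2% to 43.5% of the probes were above background on each array. Pairs of arrays correlated at 0.988 to 0.995, and no array stood apart. Of 10 cardiomyocyte markers 9 had a named probe, and all 9 were bright enough to be tested, with 0 called by limma, and 0 also before adjustment at a p under 0.05. The median change over all tested probes was -0.02.

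The promoter windows of 3 of the tested genes are shown. They belong to the member that was called higher (Elovl5), the one with the next highest change (Acly) and the one with the lowest change (Fads1). The changes of Acly and Fads1 did not pass the test, so the 3 windows do not stand for 3 patterns of response. Each is the 250 bases before the start of the RefSeq gene in rat assembly GRCr8, written along the gene's own strand, with matches to motifs in capitals.
Elovl5, chr8:87670914-87671163, plus strand: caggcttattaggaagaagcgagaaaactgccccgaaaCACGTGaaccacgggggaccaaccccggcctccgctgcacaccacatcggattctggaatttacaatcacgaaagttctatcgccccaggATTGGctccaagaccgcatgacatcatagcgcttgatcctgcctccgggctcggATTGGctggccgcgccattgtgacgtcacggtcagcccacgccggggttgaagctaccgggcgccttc
Acly, chr10:85963632-85963881, minus strand: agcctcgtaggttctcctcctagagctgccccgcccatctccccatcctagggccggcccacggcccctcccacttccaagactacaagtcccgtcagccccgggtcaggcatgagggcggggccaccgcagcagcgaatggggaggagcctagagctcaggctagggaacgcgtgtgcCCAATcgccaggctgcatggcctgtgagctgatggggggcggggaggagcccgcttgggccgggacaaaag
Fads1, chr1:216252442-216252691, plus strand: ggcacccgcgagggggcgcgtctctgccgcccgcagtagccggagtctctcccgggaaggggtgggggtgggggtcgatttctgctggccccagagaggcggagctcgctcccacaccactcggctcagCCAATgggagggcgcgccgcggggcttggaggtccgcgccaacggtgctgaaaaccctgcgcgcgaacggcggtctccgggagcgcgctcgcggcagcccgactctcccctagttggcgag

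The motifs searched on both strands were the sterol regulatory element TCACNCCAC (N being any base), the E-box CACGTG, which basic helix-loop-helix proteins bind, and the CCAAT box, read as ATTGG on the other strand, which the factor NF-Y binds. Among 33469 rat promoter windows of the same length, 0.974% held the first, 5.59% the second and 34.0% the third. The Elovl5 window held 1 E-box, 212 to 207 bases before the start, and 2 CCAAT boxes on the other strand, at 122 to 118 and 68 to 64 bases. The windows of Acly and Fads1 held 1 CCAAT box each, at 71 to 67 and 121 to 117 bases before the start, and no E-box. None of the 3 held the sterol regulatory element in these letters. Of the other tested members, neither of which was called, Scd2 also had 2 CCAAT boxes in its window and Srebf1 had 1. The matches overlap with no other match and are a description of the letters, not of binding.

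Elovl5, the elongase that lengthens polyunsaturated fatty acids, was the only 1 of the 5 tested members called over all hearts, and it was higher with AAV-VEGF-B. Its log2 signal had a lowest value of 7.03, a median of 7.18 and a highest value of 7.52 in AAV-VEGF-B hearts, against 6.09, 6.54 and 7.0 in AAV-HSA hearts. All 6 AAV-VEGF-B hearts thus lay above all 6 AAV-HSA hearts, the closest being 7.03 in an AAV-VEGF-B male and 7.0 in an AAV-HSA male, as was the case for 2.96% of all tested probes. The means were 7.23 ± 0.19 in AAV-VEGF-B hearts and 6.54 ± 0.31 in AAV-HSA hearts (SD, n = 6 each), a log2 change of 0.69 (SE 0.13, 95% interval 0.41 to 0.98) or 1.62-fold (interval 1.33 to 1.97), with a limma adjusted p of 0.0061. The change was larger than that of 99.1% of the tested probes. An exact two-sided permutation test over all 924 regroupings gave p = 0.0022, the smallest that 6 against 6 hearts allow. Any probe with full separation gets this p, so it adds nothing to the separation above. With 1 of 5 members higher and 0 lower (before adjustment, 2 and 0 had a p under 0.05), the background was 5.2% of tested probes called, 4.17% higher and 1.03% lower.

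The Elovl5 probe was dim, which bears on the size of its change. Before normalization its signal ran from 242.8 to 311.2 in AAV-VEGF-B hearts and from 194.6 to 251.9 in AAV-HSA hearts, so that the deposited signals of the groups overlapped while the normalized ones did not. Its detection p was at most 0.02545, in an AAV-HSA heart. Without background correction the change was 0.33 and still called (limma, adjusted p = 0.0058). It was called under all 21 alternatives tried, at log2 changes of 0.33 to 0.82 and adjusted p-values of 9.8e-04 to 0.018.

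**Figure D1:**
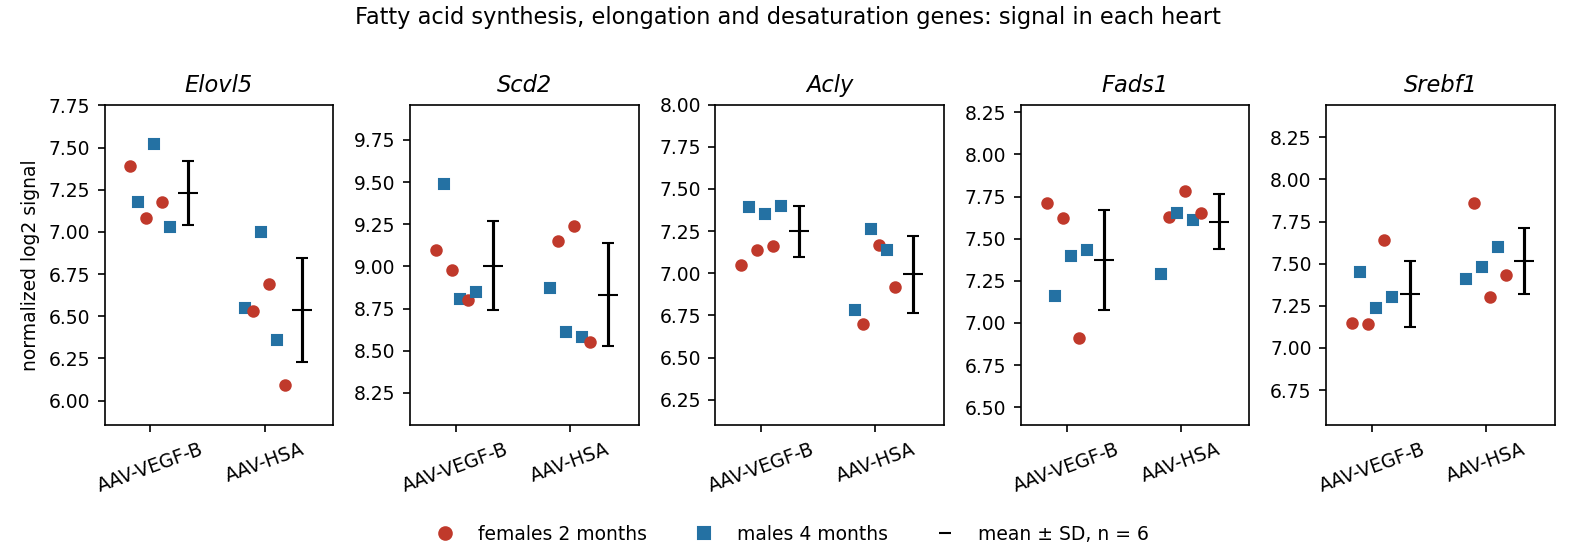
Normalized log2 signal of the 5 tested genes in each of 12 hearts, with AAV-VEGF-B left of AAV-HSA in every panel, circles for females after 2 months, squares for males after 4 months, and a bar for the mean ± SD of 6 hearts. Every panel spans the same log2 range; the Elovl5 points of AAV-VEGF-B hearts (7.03 to 7.52) all lie above those of AAV-HSA hearts (6.09 to 7.0), and those of the other genes overlap.

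Markers of other cells moved in the same hearts. Of 12 endothelial markers 10 were tested, of which 7 were higher and 0 lower with AAV-VEGF-B, among them the receptor Tie1 (log2 change 0.72) and the sialomucin Emcn (0.71), while the clotting factor Vwf had 0.05 and the junction protein Cldn5 -0.11. Their summed signal was 11572 to 13826 in AAV-VEGF-B hearts and 8190 to 10284 in AAV-HSA hearts and these ranges do not overlap. Cdh5, 1 of the 10 and part of this sum, was above background in 4 of 6 AAV-VEGF-B hearts and 0 of 6 AAV-HSA hearts. It thus passed the filter only through the group where its signal was higher. Of 9 smooth muscle and pericyte markers 5 were tested and 3 were higher, with summed signals of 1333 to 1796 with AAV-VEGF-B and 946 to 1266 with AAV-HSA. The part of these cells in the Elovl5 result was not tested, and in whole ventricle more cells of a type and more RNA per cell cannot be told apart. The defining adipocyte markers Adipoq, Lep and Retn were too dim to be tested, and of 6 adipocyte genes tested limma called 0, with 1 higher before adjustment (p under 0.05), and summed signals of 13079 to 15122 with AAV-VEGF-B and 11357 to 13833 with AAV-HSA. The fibroblast, macrophage and Schwann cell lists had 0 genes called, with 7 of 8, 3 of 8 and 1 of 6 genes tested. The fibroblast changes ran from -0.34 to 1.04, and 1 higher and 2 lower genes were at an unadjusted p under 0.05 (limma). Of the 3 red blood cell genes tested 1 was higher, against 4.17% of all tested probes, with changes of -0.04 to 1.15.

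Elovl5 was called higher in females, and in males its change had the same sign without passing the test. In females after 2 months the values were 7.39, 7.08 and 7.18 with AAV-VEGF-B against 6.53, 6.69 and 6.09 with AAV-HSA, a change of 0.78 (SE 0.19, 95% interval 0.37 to 1.19, limma adjusted p = 0.044). In males after 4 months they were 7.18, 7.52 and 7.03 with AAV-VEGF-B against 6.55, 7.0 and 6.36 with AAV-HSA, a change of 0.61 (SE 0.19, interval 0.20 to 1.02, limma adjusted p = 0.20). In neither stratum did the vectors overlap, which already follows from the separation over all hearts. The share of all tested probes that separate within a stratum was not counted. Of the 10 tested endothelial markers, Cdh5 among them, 5 were called higher in females and 3 in males. The background was 2.53% of probes higher and 0.788% lower in females, and 0.749% higher and 0.0389% lower in males. The change in males minus that in females was -0.17 (SE 0.27, interval -0.75 to 0.41, limma adjusted p = 0.98), which leaves room for a difference in either direction. The call in females was close to the threshold and was kept in 9 of 19 alternatives, with adjusted p-values of 0.013 to 0.17, the highest being without AAV-VEGF-B replicate 1.

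Acly, which supplies cytosolic acetyl-CoA, came next on the same side but did not pass the test. Its log2 signal was 7.05, 7.26 and 7.40 (lowest, median and highest) in AAV-VEGF-B hearts, against 6.70, 7.03 and 7.26 in AAV-HSA hearts, with means of 7.25 ± 0.15 in AAV-VEGF-B hearts and 7.0 ± 0.23 in AAV-HSA hearts (SD, n = 6 each). The change of 0.25 (SE 0.11, 95% interval 0.02 to 0.48) had a limma adjusted p of 0.20, and the exact permutation test gave p = 0.048 before any correction for several genes. The 3 AAV-VEGF-B hearts above every AAV-HSA heart were the 3 males.

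In males after 4 months Acly was at 7.39, 7.35 and 7.40 with AAV-VEGF-B against 6.78, 7.26 and 7.14 with AAV-HSA, a change of 0.32 (SE 0.14, 95% interval 0.02 to 0.62, limma adjusted p = 0.40). In females after 2 months it was at 7.05, 7.14 and 7.16 with AAV-VEGF-B against 6.70, 7.17 and 6.92 with AAV-HSA, a change of 0.19 (SE 0.14, limma adjusted p = 0.50). The vectors therefore separated in the males and overlapped in the females. The share of all tested probes that separate within a stratum was not counted, and the difference between the changes was 0.13 (SE 0.20, limma adjusted p = 0.98). When arrays were scaled to a common median in place of quantile normalization, Acly was called over all hearts with a change of 0.40 (SE 0.11, limma adjusted p = 0.034). That scaling moved the median of all tested probes to 0.08, and relative to it the change of Acly was 0.32.

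Srebf1, which codes for the transcription factor that controls lipogenic enzymes, was on the other side of 0 and did not pass. It had 7.14, 7.27 and 7.64 (lowest, median and highest) in AAV-VEGF-B hearts and 7.30, 7.45 and 7.86 in AAV-HSA hearts. The groups overlapped, with 3 AAV-VEGF-B hearts below every AAV-HSA heart. The change was -0.19 (SE 0.11, 95% interval -0.42 to 0.04, limma adjusted p = 0.35), with -0.22 (SE 0.16) in females and -0.16 (SE 0.16) in males. The array measures its transcript, not the processing of the protein that sets its activity.

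Of the desaturases, Scd2, which makes monounsaturated fatty acids, did not pass the test. It had 8.80, 8.91 and 9.49 (lowest, median and highest) in AAV-VEGF-B hearts against 8.55, 8.74 and 9.24 in AAV-HSA hearts, a change of 0.17 (SE 0.15, 95% interval -0.14 to 0.48, limma adjusted p = 0.55). The groups overlapped widely, and 1 AAV-VEGF-B male, at 9.49, lay above all AAV-HSA hearts. In females after 2 months the values were 9.10, 8.98 and 8.80 with AAV-VEGF-B and 9.15, 9.24 and 8.55 with AAV-HSA, a change of -0.02 (SE 0.20). In males after 4 months they were 9.49, 8.81 and 8.85 with AAV-VEGF-B and 8.87, 8.61 and 8.58 with AAV-HSA, a change of 0.37 (SE 0.20, limma adjusted p = 0.52). The difference between those changes, 0.39, was the widest among the members (SE 0.28, 95% interval -0.22 to 1.01, limma adjusted p = 0.97) and was not separable from 0. The AAV-VEGF-B male at 9.49 stood above the rest: without this heart, replicate 2, the Scd2 change was 0.15 in males and 0.08 over all hearts.

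Fads1, a desaturase of the polyunsaturated pathway that acts on fatty acids after elongation by Elovl5, had the lowest change among the members. Its log2 signal was 6.91, 7.41 and 7.71 (lowest, median and highest) with AAV-VEGF-B and 7.29, 7.64 and 7.78 with AAV-HSA. The change was -0.23 (SE 0.13, 95% interval -0.50 to 0.04, limma adjusted p = 0.33), with -0.27 (SE 0.18) in females and -0.19 (SE 0.18) in males. The AAV-VEGF-B hearts were spread over the whole range, with 2 of them, a female at 6.91 and a male at 7.16, below every AAV-HSA heart. Of this elongase and this desaturase of 1 pathway only Elovl5 passed the test, and the interval of Fads1 included 0.

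**Figure D2:**
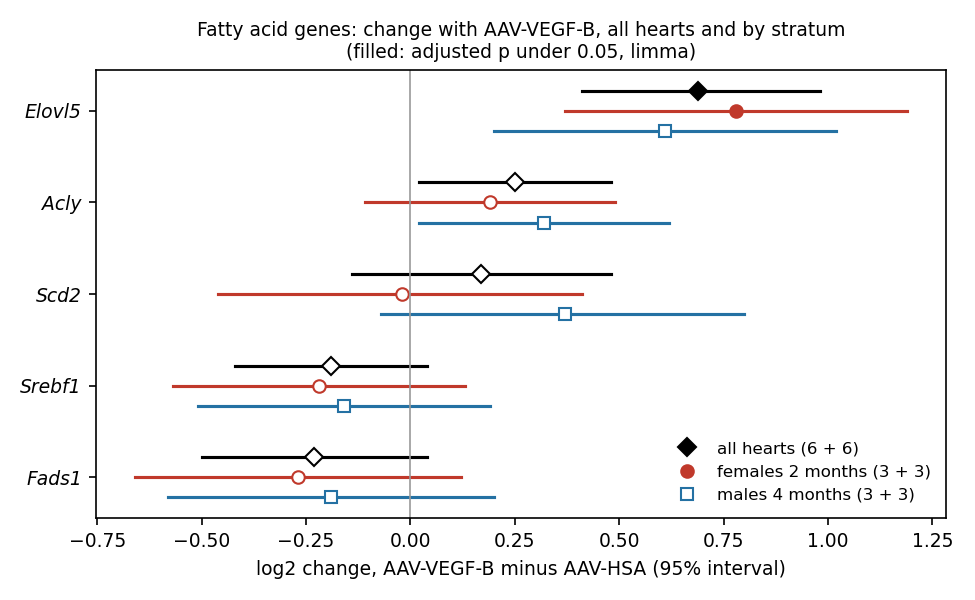
Log2 change of the 5 tested genes, AAV-VEGF-B minus AAV-HSA, with 95% intervals from limma, for all hearts (diamonds), females after 2 months (circles) and males after 4 months (squares), filled where the adjusted p was under 0.05. Elovl5 is called over all hearts (0.69) and in females (0.78) and has 0.61 in males; the other 4 genes lie between -0.27 and 0.37.

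For 3 members the array gave no level above background. Elovl6, the elongase of saturated and monounsaturated fatty acids, had deposited signals of 126.6 to 145.9 in AAV-VEGF-B hearts and 139.5 to 154.5 in AAV-HSA hearts, with detection p-values of 0.24121 to 0.80727. Acaca had 133.2 to 171.1 with AAV-VEGF-B and 152.8 to 167.5 with AAV-HSA (detection p 0.11515 to 0.53576). Fads2, the desaturase at the first step of the polyunsaturated pathway, had 140.5 to 170.6 with AAV-VEGF-B and 151.4 to 167.5 with AAV-HSA (detection p 0.11152 to 0.3297). The groups overlapped for each of these probes, and no fold is given since both were within background. These probes say nothing of whether the transcripts were there at levels the array could not measure.

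The estimated changes of the members differed in sign, though those other than that of Elovl5 did not pass the test. The median change of the tested members over all hearts was 0.17, between -0.23 and 0.69, with 3 of the 5 above 0 and 2 below 0. After the means of the 4 groups of vector and stratum were subtracted, the 10 pairs of tested members correlated over the 12 hearts at Pearson r of -0.65 (Fads1 and Srebf1) to 0.30 (Elovl5 and Scd2), and 0 pairs were above 0.5. These are descriptions over hearts that share their arrays' normalization.

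Time and sex were compared as males after 4 months minus females after 2 months over both vectors, where 1.06% of all tested probes were called by limma and 0 of the 5 members were, nor were any of these at an unadjusted p under 0.05. The member with the largest difference was Acly, at 0.20 (SE 0.10, 95% interval -0.02 to 0.41, limma adjusted p = 0.35). Within AAV-VEGF-B the 3 males, at 7.35 to 7.40, lay above the 3 females, at 7.05 to 7.16, a difference of 0.26 (SE 0.14, limma adjusted p = 0.47). The share of all tested probes with such a separation was not counted. Elovl5 differed by 0.11 (SE 0.13), Scd2 by -0.10 (SE 0.14), Fads1 by -0.13 (SE 0.13) and Srebf1 by less than 0.01 in size (SE 0.11), and none of these passed. The difference in vector change between the strata passed the test for 0 of the 5 members (0 at an unadjusted p under 0.05), and for 0 of 10281 probes, of which 542 had an unadjusted p under 0.05 (limma).

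The rest of the pathway was described with a list of 43 other genes of elongation, desaturation, substrate supply, mitochondrial fatty acid synthesis and transcriptional control. Of these, 14 had no named probe here, 5 were too dim to be tested, and 24 were tested. Over all hearts limma called 0 higher and 1 lower with AAV-VEGF-B (1 and 3 at an unadjusted p under 0.05), against a background of 4.17% higher and 1.03% lower. Their median change was 0.01, with 13 above 0 and 11 below 0, close to the -0.02 of all tested probes. The highest change in the list was 0.23, so that none of the 24 reached the 0.69 of Elovl5.

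In the elongation cycle, where Elovl enzymes make the first, condensing step, 4 of 10 listed genes were tested and limma called 0, with 0 at an unadjusted p under 0.05. Hsd17b12 and Tecr, the reductase and final reductase of the cycle, had changes of 0.00 (SE 0.10, 95% interval -0.21 to 0.22) and 0.10 (SE 0.09, interval -0.09 to 0.28). Hacd3, 1 of several dehydratases of the cycle, had 0.07 (SE 0.08). All were named for their role in the cycle. Of the other listed dehydratases, Hacd1 and Hacd2 had no named probe and Hacd4 was too dim to be tested. Elovl3, a further elongase, had -0.20 (SE 0.13, limma adjusted p = 0.41) and was above background in 2 of 6 AAV-VEGF-B hearts and 3 of 6 AAV-HSA hearts. Of the electron donors of the desaturases, cytochrome b5 reductase Cyb5r3 had 0.13 (SE 0.11, limma adjusted p = 0.55). The change of Elovl5 therefore had no counterpart that passed the test among the measured enzymes of its cycle.

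**Figure D3:**
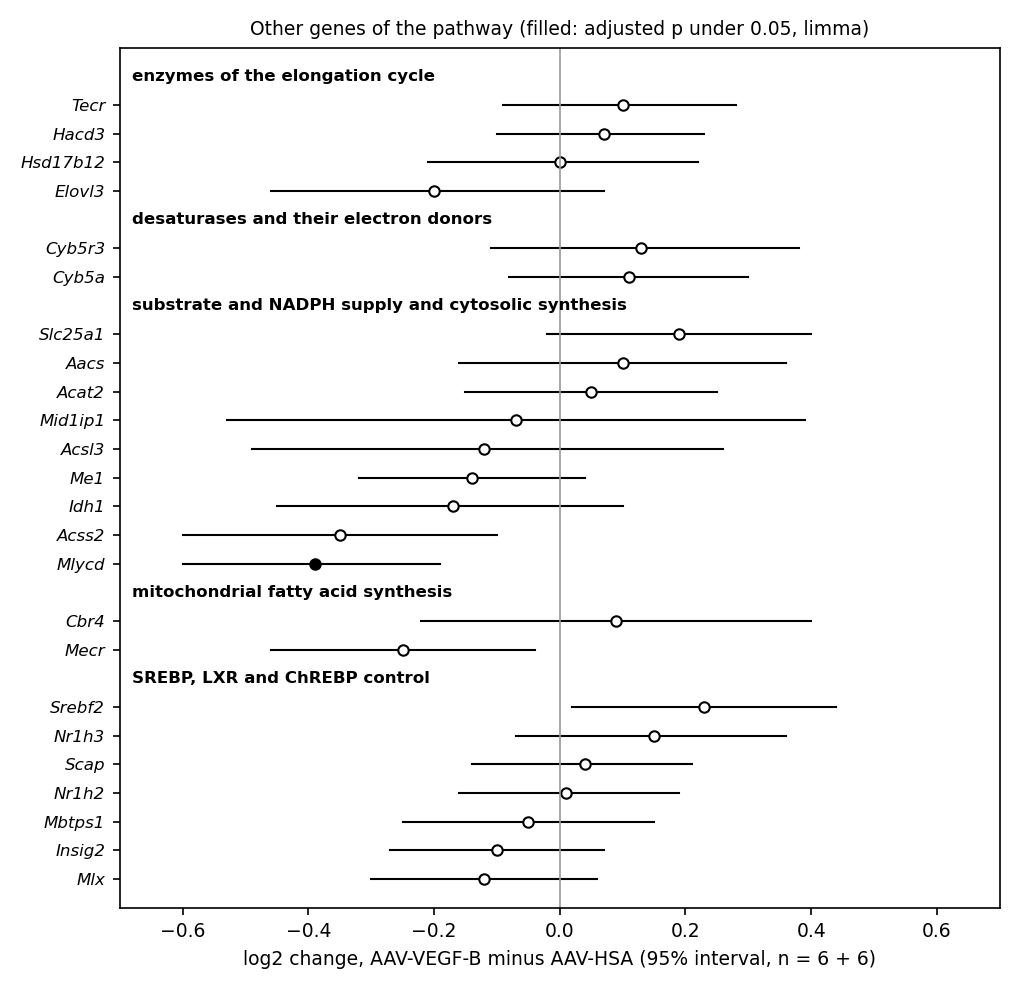
Log2 change of the 24 other tested genes of the pathway, AAV-VEGF-B minus AAV-HSA over all hearts (6 and 6), with 95% limma intervals, grouped by role and filled where the adjusted p was under 0.05. Mlycd (-0.39) is the only filled point, and all points lie between -0.39 and 0.23.

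Among 9 tested genes of substrate and NADPH supply and cytosolic synthesis, the gene called was Mlycd, malonyl-CoA decarboxylase, which removes malonyl-CoA and so acts against the synthesis that the list is named for. It had 11.15, 11.43 and 11.69 (lowest, median and highest) in AAV-VEGF-B hearts against 11.63, 11.84 and 11.93 in AAV-HSA hearts, with 5 of 6 AAV-VEGF-B hearts below every AAV-HSA heart. The means were 11.43 ± 0.20 in AAV-VEGF-B hearts and 11.83 ± 0.11 in AAV-HSA hearts (SD, n = 6 each), a change of -0.39 (SE 0.09, 95% interval -0.60 to -0.19, limma adjusted p = 0.022). In females the change was -0.51 (SE 0.13, limma adjusted p = 0.049) and in males -0.28 (SE 0.13, limma adjusted p = 0.45). The call in females was at the threshold and was kept in 7 of 19 alternatives, with adjusted p-values of 0.014 to 0.20, the highest being without AAV-VEGF-B replicate 1. With median scaling the call over all hearts was lost (limma adjusted p = 0.085), as it was when AAV-VEGF-B replicate 1 was left out (0.051), at the same sign.

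Acss2, which makes acetyl-CoA from acetate in the cytosol, was called lower in females, 1 of 2 pathway genes lower there, against 0.788% of all probes. Of these calls that of Acss2 was kept in 17 of 19 alternatives and that of Mlycd in 7 of 19. Over all hearts Acss2 was not called, at -0.35 (SE 0.12, limma adjusted p = 0.10). There it was called in 0 of 21 alternatives, and Mlycd in 18 of 21. In females after 2 months Acss2 had 9.15, 9.12 and 8.87 with AAV-VEGF-B against 9.43, 9.74 and 9.91 with AAV-HSA, a change of -0.65 (SE 0.13, 95% interval -0.92 to -0.37, limma adjusted p = 0.017). In males after 4 months it had 9.54, 9.47 and 9.39 with AAV-VEGF-B against 9.48, 9.52 and 9.56 with AAV-HSA, a change of -0.05 (SE 0.13, interval -0.33 to 0.22, limma adjusted p = 0.93). The groups were apart in the females and overlapped in the males, where the share of all probes apart within a stratum was not counted. The difference between the changes was 0.59 (SE 0.18), which did not pass over all probes (limma adjusted p = 0.94). The limma adjusted p in females was 0.069 when AAV-HSA replicate 6 was left out and 0.061 when AAV-VEGF-B replicate 5 was, both of them females, so that the call then was lost.

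**Figure D4:**
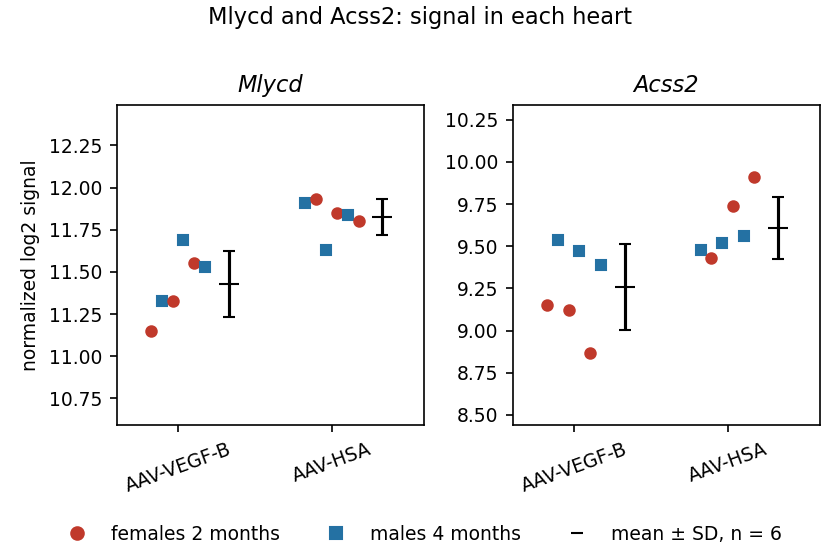
Normalized log2 signal of Mlycd and Acss2 in each of 12 hearts, AAV-VEGF-B left of AAV-HSA, circles for females after 2 months, squares for males after 4 months, and a bar for the mean ± SD of 6 hearts. For Mlycd 5 of 6 AAV-VEGF-B points lie below all AAV-HSA points, and for Acss2 the females are apart (8.87 to 9.15 with AAV-VEGF-B, 9.43 to 9.91 with AAV-HSA) while the males overlap.

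The other genes of the list did not pass. The citrate carrier Slc25a1, which exports the substrate of Acly from mitochondria, had 0.19 (SE 0.10, limma adjusted p = 0.31), and the NADPH-producing enzymes Idh1 and Me1 had -0.17 (SE 0.13, adjusted p = 0.48) and -0.14 (SE 0.08, adjusted p = 0.38). Mecr, the enoyl reductase of mitochondrial fatty acid synthesis, had -0.25 (SE 0.10, limma adjusted p = 0.16). Of the 7 tested genes of control by SREBP, LXR and ChREBP limma called 0, and 1, Srebf2, had an unadjusted p under 0.05, with changes of -0.12 to 0.23. Srebf2, the regulator of sterol synthesis, had 0.23 (SE 0.10, limma adjusted p = 0.19) and was above background in 5 of 6 AAV-VEGF-B hearts and 2 of 6 AAV-HSA hearts. The oxysterol receptor Nr1h3 had 0.15 (SE 0.10, limma adjusted p = 0.44).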

How the data were processed

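The authors deposited the signal intensities of the probes as GenomeStudio gives them before normalization, the detection p-value of every signal, and a table of log2 values with array medians of 7.36. Their methods name Chipster, quantile normalization, an empirical Bayes test and a false discovery rate by Benjamini-Hochberg; how they corrected the background or filtered probes was not given in the sources used here. Signals ran from 97.1 to 45492.6, and the number of arrays, 12, limits the precision.

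For this work the signals went through limma 3.58.1 in R 4.3.3: the function neqc corrected the background (normexp with detection p-values, offset 16), quantile-normalized and took log2. A probe was tested where its detection p was below 0.05 on 3 or more of the 12 arrays, which left 10281 of 22517. lmFit and eBayes compared AAV-VEGF-B with AAV-HSA without covariates, and a 4-group model, vector by stratum, provided changes within and between strata. SE are limma's moderated values, and intervals cover 95%. The steps were tested on simulated data. Probe names came from the platform annotation (13787 probes with 1 symbol, 8730 with none). The gene identifiers of 13747 probes were found in a RefSeq table of GRCr8, and RefSeq also gave the promoter windows. Named were the 10 genes, every gene of the pathway list past the threshold in a comparison and the 8 next largest changes, and the 5 probes most like Elovl5. Genes and lists were chosen with earlier results of these data known.

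Replicate numbers join hearts of different strata. Deviations of same-numbered arrays from their vector means correlated at -0.19 to -0.05, but these also hold the difference between the strata. Deviations from the 4 group means correlated at -0.07 to 0.05, so the numbers were not used as pairs. Alternatives were other background corrections and offsets, median scaling, the deposited log2 values, other filters, array weights, stratum and replicate blocks, and leaving out each heart.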

Additional observations from a re-analysis of the deposited data

Results flagged for a closer look

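Of 58 groups of 6 hearts examined (the 5 tested members and 24 pathway genes in both vectors), 1 had a heart far from the others, where chance gives about 1 group in 20. For Fads1, AAV-HSA replicate 1, a male, had a log2 signal of 7.29, below the next value of 7.61, in a group whose highest value was 7.78. The gap was 0.664 of the group's range, against a critical value of 0.625. Without that heart the Fads1 change over all hearts was -0.29 (limma adjusted p = 0.21), and it did not pass with or without it.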

How the results depend on the processing

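Elovl5 was called higher over all hearts under each of 21 alternatives, and its change was 0.61 to 0.79 when 1 heart was left out. It was 0.33 without background correction and with the deposited log2 values, 0.53 with an offset of 50 and 0.82 with median scaling. The count of members higher was 2 with median scaling, through Acly, and 1 otherwise. In females after 2 months it was 0 without a filter (Elovl5 adjusted p = 0.079) and with array weights (0.055), and 0 to 1 when 1 heart was left out: the call was lost without AAV-VEGF-B replicates 1, 2, 3, 5 or 6 or AAV-HSA replicates 1, 2 or 6. In males Elovl5 was not called in any of 19 alternatives, with adjusted p-values of 0.09 to 0.50. The pathway genes lower over all hearts numbered 0 with median scaling and 0 to 1 when 1 heart was left out. Over all tested probes 429 were higher and 106 lower. With median scaling 842 were higher and 27 lower, without background correction 174 were lower, with the deposited log2 values 179 and with the stratum as a block 180; leaving out 1 heart gave 322 to 415 higher and 49 to 115 lower, the fewest lower without AAV-VEGF-B replicate 1 (49), and 66 without AAV-HSA replicate 3. The cause of these shifts was not tested. With the replicate number as a block, which shares only a number between hearts of different strata, Elovl5 kept its change of 0.69 (adjusted p = 0.014), 0 pathway genes were lower (Mlycd adjusted p = 0.062), and 300 probes were higher and 42 lower. No member changed sign over all hearts in any alternative. A slide block and a second probe per gene were not run, since the columns name no slide and each member had 1 probe. Signals near background limit the size of the changes of Elovl5, Elovl3 and Srebf2.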

Other observations

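After subtraction of the 4 group means, the tested named probes most like Elovl5 over the 12 hearts, of 7559 searched, were Phc3 (Pearson r = 0.95), Rapgef2 (0.94), Ndufa10l1 (0.93), Rbm43 (0.92) and Nsmf (0.90). They share the arrays' normalization with it, and the choice of the highest values among many makes high r likely. None of the 5 was called between the vectors, with log2 changes of -0.15 to 0.16 and limma adjusted p-values of 0.51 to 0.74.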
